A study of Mus musculus with 6 samples.

Results

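The genes described here are 39 genes of interferon signalling and response, measured by bulk RNA sequencing in a mouse skin squamous cell carcinoma line. They were chosen by name, and all 39 have a row among the 49671 genes of the deposited table. Of these, 27 had a mean of at least 20 scaled reads over the 6 libraries and were tested, as were 15330 genes of the whole table, and 12 lay under that mean. The values are whole numbers scaled by the authors to 20 M per library, and they are called scaled reads below.

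The cells were LKPR EPCAM+, 1 primary line from tumours with the genotype Lgr5CreER, KrasLSL-G12D, p53fl/fl and Rosa26-YFP+/+, in which Cre is driven from the stem cell gene Lgr5. The EmptyVector group carried the TRC1 vector, the KDNTN1 group a pLKO.1-puro knock-down of Ntn1 (netrin-1, a secreted guidance ligand) and the KDUNC5B group a knock-down of Unc5b (a netrin receptor), with 2 libraries each. All groups, the control included, were transduced with lentivirus and tested for puromycin resistance, then plated as EPCAM+ cells and sorted after 6 days as living YFP+ EPCAM+ cells. Untransduced cells were not analysed here, and the sources used here give neither the number nor the sequence of the hairpins. The labels do not tie the libraries of a group to separate cultures. The p-values therefore measure the spread between libraries alone, and that spread may be technical.

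Interferons are secreted antiviral cytokines. Type I interferons bind a receptor made of the Ifnar1 and Ifnar2 products, and interferon gamma binds one made of the Ifngr1 and Ifngr2 products. Janus kinases at the receptors then phosphorylate STAT proteins, which enter the nucleus as a complex with IRF9 that binds the interferon-stimulated response element, or as dimers that bind the gamma-activated sequence. The genes so induced encode proteins that block viral RNA, nucleotide supply, translation and assembly, and cytosolic RNA sensors such as the Ddx58 and Ifih1 products can start the same programme through IRF3 and IRF7. In skin, keratinocytes both make and answer interferons.

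The steps between the low values put the depth at 6.54 to 10.2 M reads per library, so that 3 reads, used as a floor that covers counting error only, correspond to 5.90 to 9.18 scaled reads. Ntn1 was at 1566 and 2588 scaled reads in EmptyVector, 359 and 431 in KDNTN1 and 1319 and 771 in KDUNC5B. Unc5b was at 1527 and 1573 in EmptyVector, 2311 and 2382 in KDNTN1 and 419 and 352 in KDUNC5B. Each targeted gene was thus lowest in the group labelled for it, and the libraries of a group correlated at 0.980 to 0.990 against 0.936 to 0.967 between groups over all tested genes.

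In the RefSeq promoter windows of GRCm38.p6, which run from 250 bases before to 50 after a gene's start, 31 of the 39 members have a window, and Dhx58, Mx1, Mx2, Oas2, Parp14, Parp9, Rtp4 and Usp18 have none. The core of the interferon-stimulated response element was searched on both strands as GAAA, any 2 bases, and GAAA again. It was found in 12 of the 31 members (38.7%), Ifih1, Ddx58, Stat2, Isg15, Ifit1, Ifit3, Oas1a, Rsad2, Bst2, Gbp2, Gbp3 and Gbp7, against 3.99% of the 27025 gene symbols of the table. The gamma-activated sequence, TTCNNNGAA, which reads the same on both strands, was found in 9 members (29.0%) against 9.55% of all symbols. Such a match is a description of the letters and not a measured binding site.

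The promoter stretches below are from 3 guanylate-binding protein genes of chromosome 3, whose levels differed between groups, and from Isg15 and Ifit1, which carry repeated cores but lay under the mean of 20 scaled reads. Capitals mark the response element cores and their overlaps. The stretches are 5′ to 3′ on the gene's own strand, and lie at chr3:142530216-142530335 (Gbp7, plus strand), chr3:142559906-142560025 (Gbp3, plus), chr3:142620594-142620623 (Gbp2, plus), chr4:156200819-156200938 (Isg15, minus) and chr19:34640751-34640870 (Ifit1, plus).
Gbp7: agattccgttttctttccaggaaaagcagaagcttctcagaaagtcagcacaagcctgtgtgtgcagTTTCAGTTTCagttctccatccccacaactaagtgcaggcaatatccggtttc
Gbp3: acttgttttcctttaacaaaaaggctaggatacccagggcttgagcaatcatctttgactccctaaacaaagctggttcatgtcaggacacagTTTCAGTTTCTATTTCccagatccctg
Gbp2: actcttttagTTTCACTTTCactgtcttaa
Isg15: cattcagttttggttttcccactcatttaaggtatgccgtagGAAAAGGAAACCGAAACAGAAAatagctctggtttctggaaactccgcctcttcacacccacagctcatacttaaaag
Ifit1: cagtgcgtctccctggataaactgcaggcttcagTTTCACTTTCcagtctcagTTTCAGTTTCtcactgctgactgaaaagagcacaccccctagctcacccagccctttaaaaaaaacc
The first base of the core lies 53 bases before the RefSeq start in Gbp7, 45 and 39 bases before it in Gbp3, and 59 bases before it in Gbp2. The GENCODE start of Gbp2 lies 61 bases before its RefSeq start, so by that model the core lies just inside the gene. Isg15 holds 3 overlapping cores, at 78, 72 and 66 bases before its start, and Ifit1 holds 2, at 104 and 85 bases before its start. The windows of Ifit2, Ifngr2 and Samd9l, the 3 members that changed in both knock-downs, hold no such core. An Ifit2 window holds a gamma-activated sequence match 241 bases before its start, and those of Ifngr2 and Samd9l hold neither motif. Bases outside the windows were not searched.

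The interferon receptors and the transcription factors were expressed in all libraries. Compared per kilobase of exon (GENCODE M21 gene models), the highest EmptyVector level among the members was that of Irf1, a transcription factor induced by interferon gamma, at 675 scaled reads per kilobase. Trim25, a ubiquitin ligase that acts on the RNA sensor RIG-I, followed at 337, and then Ifnar1 at 283.5, Bst2 (tetherin, which holds budding virus at the cell surface) at 272, Ifngr1 at 257, Ifnar2 at 252, the exonuclease gene Isg20 at 249, Ifi35 at 207 and Ifngr2 at 199. Among the transcription factors of the type I pathway, Irf3 stood at 127, Stat2 at 32.0, Irf9 at 31.5 and Irf7 at 17.1. The RNA sensor genes ran from Ddx58 (RIG-I) at 147 through Ifih1 (MDA5) at 51.7 to Dhx58 (LGP2) at 10.2.

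**Figure D1:**
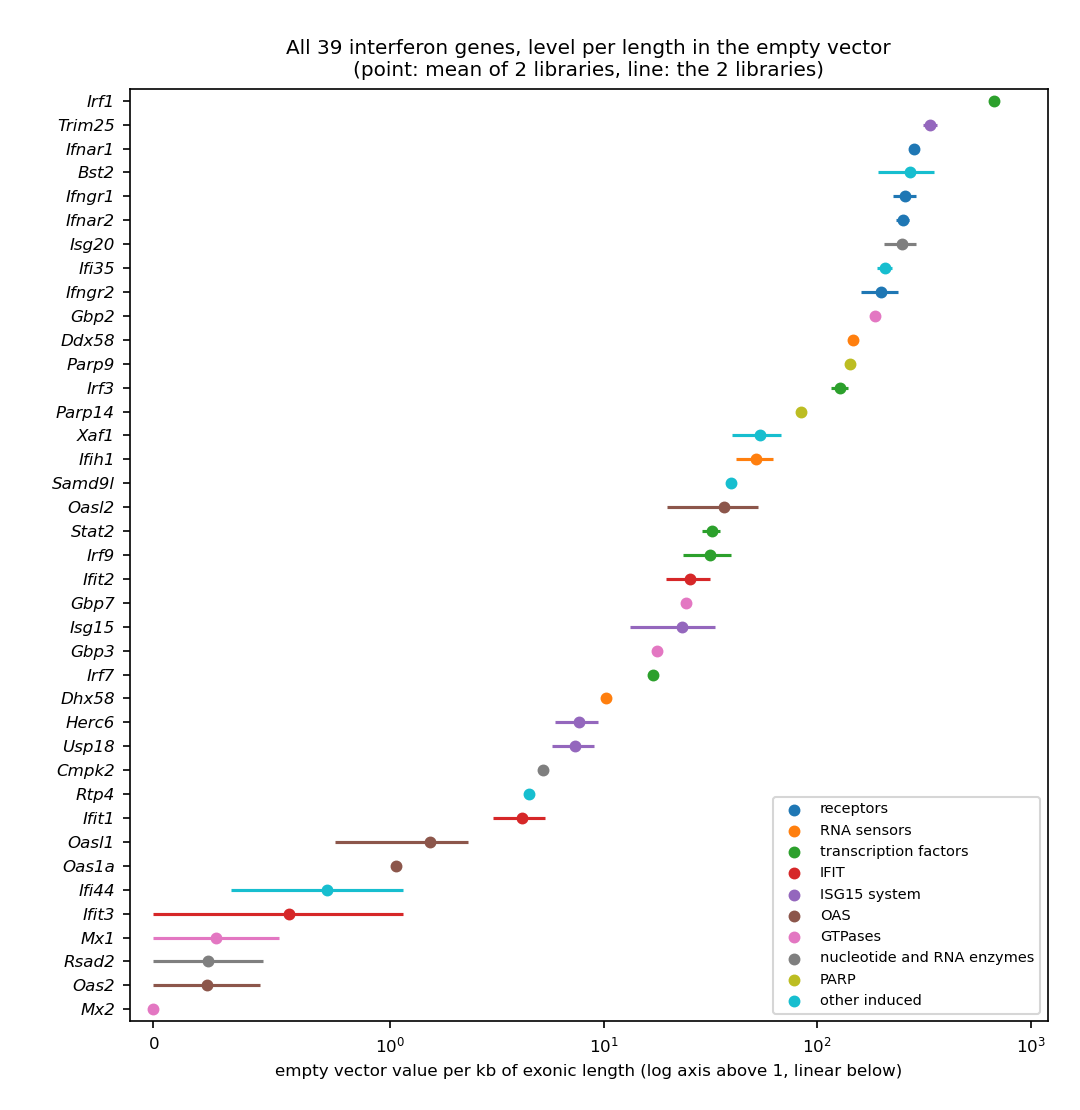
Level of each of the 39 members in EmptyVector, in scaled reads per kilobase of exon, on an axis that is logarithmic above 1 and linear below; points are means of 2 libraries, lines join the 2 libraries and colours give the role. Irf1 lies at the top with 675 and the 4 receptor chains lie between 199 and 283.5, and Mx1, Mx2, Oas2, Rsad2, Ifit3 and Ifi44 lie under 1.

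Several of the best known antiviral effectors were at or near 0. Mx1 and Mx2, of the family of dynamin-like antiviral GTPases, Oas1a and Oas2, which encode oligoadenylate synthetases, and Ifit3 were at or under the 3-read floor in all 6 libraries. Their scaled reads ran from 0 to 9 for Mx1, from 0 to 6 for Mx2 and from 0 to 2 for the other 3. In GENCODE M21, Mx2 is annotated as a polymorphic pseudogene. Reads of Oas1a and Ifit3 may also be split, since 57.6% and 51.2% of their 50-base words occur in near copies such as Oas1g and Ifit3b. Ifit1, which binds viral RNA caps, was at 8 and 14 scaled reads in EmptyVector, 0 and 0 in KDNTN1 and 13 and 2 in KDUNC5B. Isg15, a ubiquitin-like modifier, was low, at 10 and 25, 17 and 9, and 26 and 16 in the same order of groups, which is above the floor in all libraries but KDNTN1 library 2. Per kilobase of exon its EmptyVector level was 23.1. The groups of Isg15 overlapped.

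Rsad2, Oasl1, Ifi44, Rtp4 and Cmpk2 also lay under the mean of 20. Of these, Cmpk2, which encodes a mitochondrial nucleotide kinase, was at 22 and 21 scaled reads in EmptyVector, 7 and 3 in KDNTN1 and 2 and 0 in KDUNC5B. These correspond to an estimated 11 and 9 reads in EmptyVector, 3 and 1 in KDNTN1 and 1 and 0 in KDUNC5B, and both knock-downs lay below both control libraries. When all detected genes were fitted with no filter, Cmpk2 was called in KDUNC5B (log2 difference -2.16; limma, adjusted p = 0.0435) and not in KDNTN1 (-1.44; 0.0847), on a scale where 5 is added to values this low. Rsad2 (viperin, which makes a chain-terminating nucleotide) was between 0 and 9 scaled reads, Oasl1, which inhibits Irf7 translation, between 0 and 6, Ifi44 between 0 and 7 and Rtp4 between 3 and 15.

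The interferon genes themselves were nearly silent. Of 21 ligand genes in the table, 16 were at 0 in all 6 libraries, among them Ifnb1, Ifng, Ifnl2, Ifnl3 and most Ifna genes. Their summed level was 7 to 10 scaled reads in EmptyVector, 3 to 5 in KDNTN1 and 6 to 9 in KDUNC5B, and none reached the mean needed for testing. Ifnk, the keratinocyte interferon kappa, was at 10 and 5 in EmptyVector, 0 and 0 in KDNTN1 and 4 and 0 in KDUNC5B, which is too few reads to order the groups. In bulk RNA, fewer cells with a transcript and less transcript per cell cannot be told apart, here and below.

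The 2 knock-downs were each compared with EmptyVector. The comparisons were fitted with limma to all tested genes on the scale log2(scaled reads + 5), and a gene was called at a Benjamini-Hochberg adjusted p under 0.05. In KDNTN1 against EmptyVector, 5 of the 27 tested members (18.5%) were called, beside 15.1% of all tested genes. Samd9l and Ifngr2 were higher, where 8.04% of all genes were, and Ifit2, Gbp2 and Ddx58 were lower, where 7.06% of all genes were. The median log2 difference of the 27 was -0.10 beside -0.02 over all genes. The libraries of the groups did not overlap for 17 members (63.0%), beside 58.2% of all genes.

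In KDUNC5B against EmptyVector, again 5 of the 27 (18.5%) were called, beside 12% of all tested genes. Ifngr2 and Samd9l were higher, beside 5.9% of all genes, and Gbp7, Gbp3 and Ifit2 were lower, beside 6.07%. The median log2 difference was 0.01 beside 0.04 over all genes, and 13 members (48.1%) did not overlap, beside 52% of all genes. Both comparisons use the same EmptyVector libraries. The share of members called lies near that of all genes in each comparison, so the count is not a result about the interferon genes as a group. With no filter on low values the called members were Samd9l in KDNTN1 (limma, adjusted p = 0.0205) and Gbp7 (0.0241) and Cmpk2 in KDUNC5B, and the other 8 calls were lost. Without the variance trend, all KDNTN1 calls but that of Samd9l and the KDUNC5B call of Ifngr2 were lost.

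**Figure D2:**
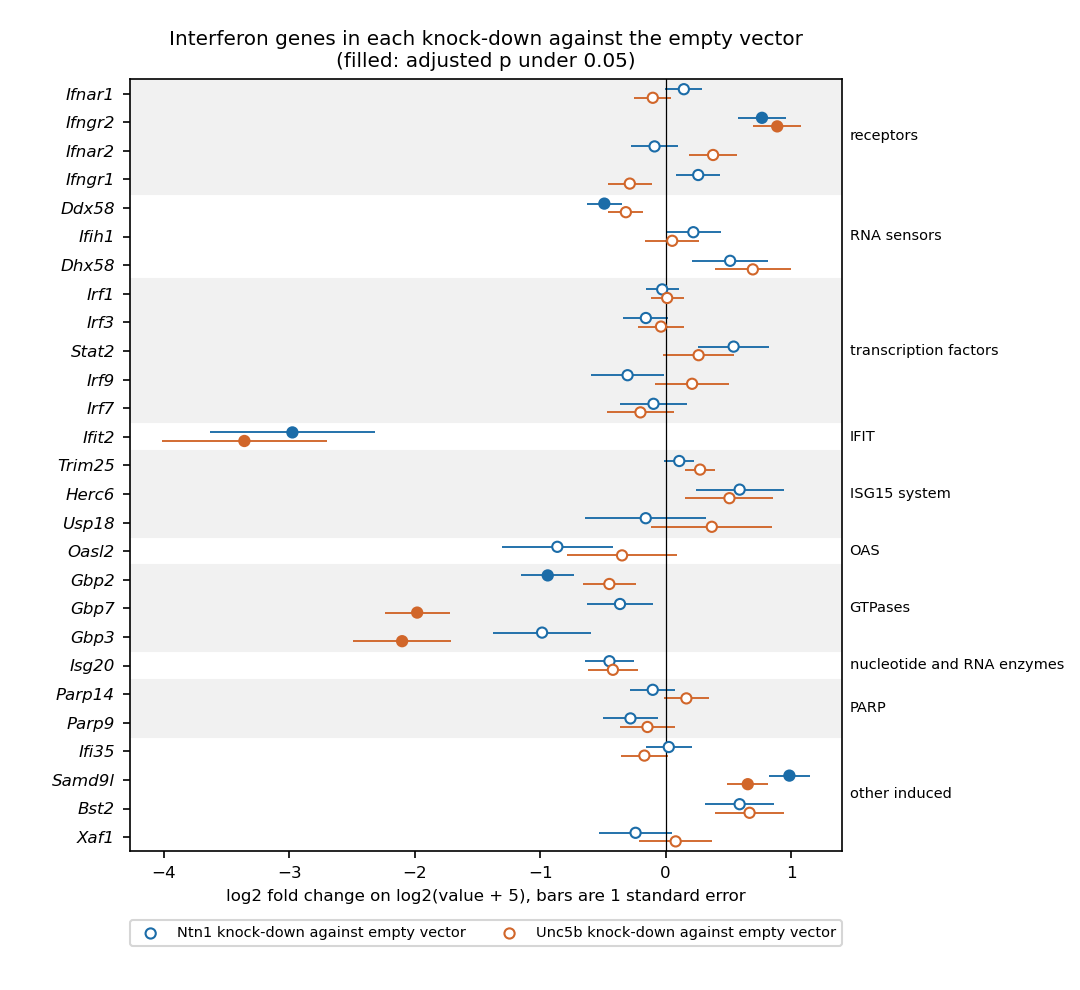
Log2 difference from EmptyVector on the log2(scaled reads + 5) scale, with bars of 1 standard error, for the 27 tested members by role, in KDNTN1 (blue) and KDUNC5B (orange); filled points are called at an adjusted p under 0.05. Ifit2 lies furthest from 0 in both, at -2.97 and -3.36, and Gbp7 and Gbp3 lie at -1.98 and -2.10 in KDUNC5B.

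Ifit2, an interferon-induced gene of the tetratricopeptide repeat family that limits viral translation, had the largest difference among the tested members in both comparisons. The gene (ENSMUSG00000045932) lies on the plus strand of chromosome 19, at 34550694 to 34576419 of GRCm38. Ifit2 was at 77 and 123 scaled reads in EmptyVector, 5 and 12 in KDNTN1 and 15 and 0 in KDUNC5B. Every knock-down library was below both control libraries, and the knock-downs overlapped each other. The group means were 100 ± 32.5 (SD, n = 2) in EmptyVector, 8.5 ± 4.9 in KDNTN1 and 7.5 ± 10.6 in KDUNC5B. The log2 difference was -2.97 ± 0.66 (SE) in KDNTN1 (limma, adjusted p = 0.0191) and -3.36 ± 0.66 in KDUNC5B (limma, adjusted p = 0.0141).

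The Ifit2 values rest on few reads, an estimated 39 and 54 in EmptyVector, 2 and 4 in KDNTN1 and 7 and 0 in KDUNC5B. With no filter on low values both calls were lost (limma, adjusted p = 0.0920 in KDNTN1 and 0.0867 in KDUNC5B). The KDNTN1 call was lost without EmptyVector library 2 (limma, adjusted p = 0.0693), without KDNTN1 library 1 (0.152) or library 2 (0.0844), and with a pseudocount of 1 (0.0821). The KDUNC5B call was lost without EmptyVector library 2 (0.0524) or KDUNC5B library 2, the library at 0 (0.0615), and without the latter the log2 difference was -2.36. Its relatives Ifit1 and Ifit3 were too low to test, as given above.

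**Figure D3:**
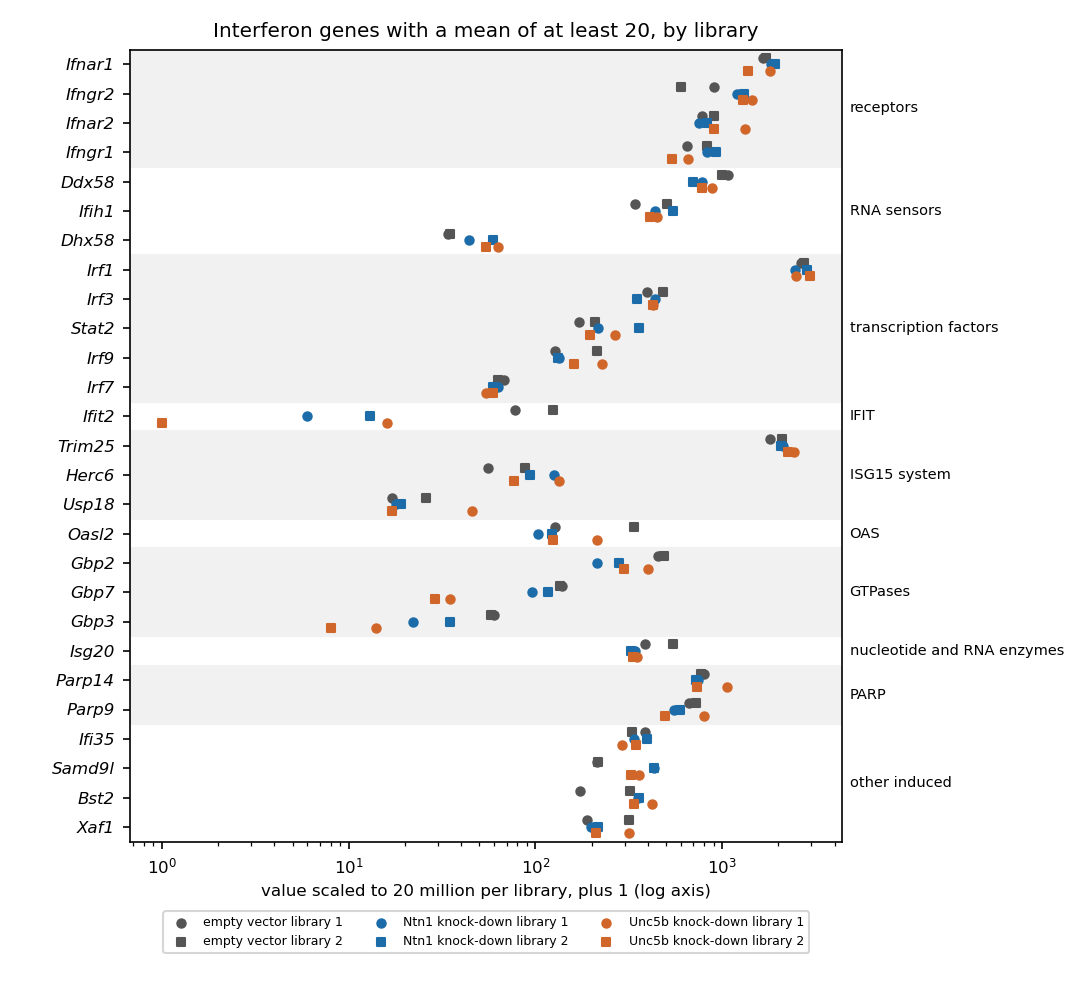
Scaled reads plus 1, on a log axis, of the 27 tested members by role, with 1 point per library (circles for library 1, squares for library 2) and a colour for each group. For Ifit2 all 4 knock-down values, from 0 to 15, lie under the control values of 77 and 123, and for Samd9l all 4, from 322 to 428, lie above the control values of 212 and 215.

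The guanylate-binding proteins are GTPases that interferon gamma induces strongly and that act on the membranes around intracellular pathogens. Gbp7 (ENSMUSG00000040253, 142530342 to 142550149), Gbp3 (ENSMUSG00000028268, 142560026 to 142573209) and Gbp2 (ENSMUSG00000028270, 142620602 to 142638008) lie in 1 group on the plus strand of chromosome 3 of GRCm38, and all 3 have a response element core in the promoter window shown above. All 3 were below both control libraries in every knock-down library.

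Gbp7 was at 138 and 135 scaled reads in EmptyVector, 95 and 116 in KDNTN1 and 34 and 28 in KDUNC5B. The 3 groups did not overlap, with KDUNC5B far below the others. The mean of 31.0 ± 4.2 (SD, n = 2) in KDUNC5B was 4.40-fold below the 136.5 ± 2.1 of EmptyVector. With 5 added to each value, the log2 difference was -1.98 ± 0.26 SE (limma, adjusted p = 0.00273). In KDNTN1 the log2 difference of -0.36 ± 0.26 was not called (limma, adjusted p = 0.394). The KDUNC5B call held in all 11 alternatives that tested it, with adjusted p between 0.00199 and 0.0266.

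Gbp3 followed the same order, at 59 and 57 scaled reads in EmptyVector, 21 and 34 in KDNTN1 and 13 and 7 in KDUNC5B. Here too no groups overlapped. Its mean in KDUNC5B, 10.0 ± 4.2 (SD, n = 2), was 5.80-fold below the 58.0 ± 1.4 of EmptyVector. With 5 added to each value, the log2 difference was -2.10 ± 0.39 SE (limma, adjusted p = 0.0115). It rests on an estimated 30 and 25 reads in EmptyVector and 6 and 3 in KDUNC5B, where library 2 lies at the 3-read floor. The KDUNC5B call was lost with no filter on low values (limma, adjusted p = 0.0565). That call was lost without KDUNC5B library 2 (adjusted p = 0.0809). The KDNTN1 difference, -0.98 ± 0.39, was not called (limma, adjusted p = 0.131).

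Gbp2 had another order, at 452 and 489 scaled reads in EmptyVector, 212 and 278 in KDNTN1 and 398 and 296 in KDUNC5B. The KDNTN1 libraries were the lowest and did not overlap either of the other groups. The mean of 245 ± 46.7 (SD, n = 2) in KDNTN1 was 1.92-fold below the 470.5 ± 26.2 of EmptyVector, a log2 difference of -0.94 ± 0.21 (SE; limma, adjusted p = 0.0206). This call was lost without EmptyVector library 2 (adjusted p = 0.0585) and without KDNTN1 library 1 (0.181) or library 2 (0.0695). In KDUNC5B the difference was -0.45 ± 0.21 (limma, adjusted p = 0.219).

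Parts of these transcripts are shared with other genes, and no source used here says how reads that match several places were treated. Of the 50-base words in the exons of Gbp7, 12.7% also occur in other genes, among them the pseudogene Gm43802 that overlaps it and Gbp3 and Gbp9. The share was 3.75% for Gbp3 and 2.03% for Gbp2. Gbp5, the next gene beside Gbp7, was between 0 and 5 scaled reads. A further group of these genes lies on the minus strand of chromosome 5. Among them Gbp9 was at 356 and 926 scaled reads in EmptyVector, 183 and 211 in KDNTN1 and 415 and 218 in KDUNC5B, and Gbp4 at 45 and 208, 33 and 12, and 88 and 42. Neither was called in any comparison, and for both the EmptyVector libraries lay far apart. In KDNTN1 both lay below both controls, with log2 differences of -1.52 and -2.02 (limma, adjusted p = 0.0502 and 0.0885). Gbp6, Gbp8 and Gbp10 lay under the mean of 20. In EmptyVector, KDNTN1 and KDUNC5B, Gbp6 was at 22 and 43, 5 and 6, and 15 and 5 scaled reads. Gbp8 was at 16 and 39, 5 and 0, and 6 and 2. Gbp10 was at 12 and 25, 2 and 6, and 13 and 2. Values below the controls in KDNTN1 were thus not particular to the chromosome 3 group.

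**Figure D4:**
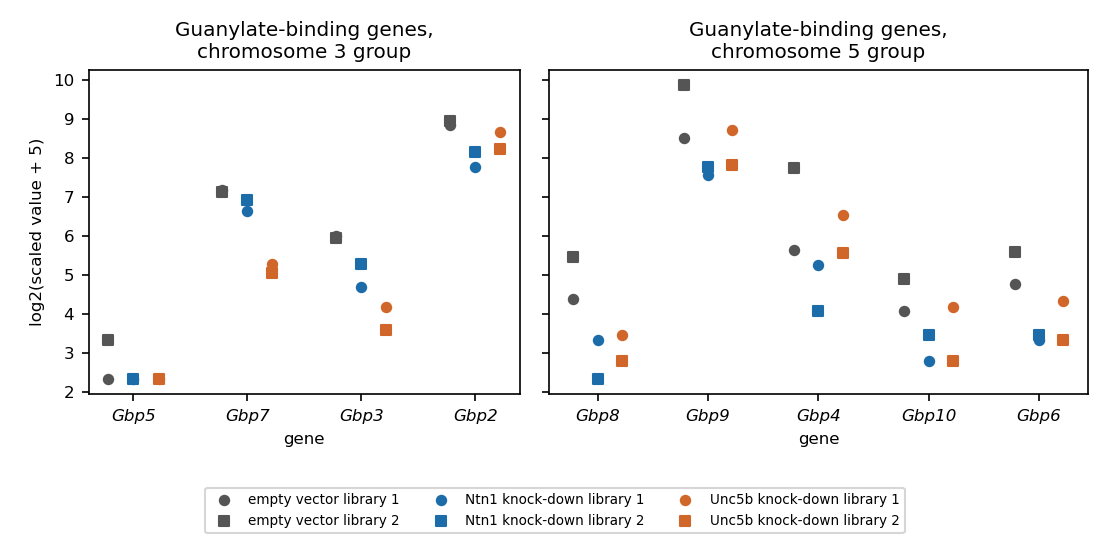
Guanylate-binding protein genes of chromosome 3 (left) and chromosome 5 (right) as log2(scaled reads + 5), with 1 point per library (circles for library 1, squares for library 2) and a colour for each group. On chromosome 3 the EmptyVector values of Gbp7 (138 and 135 scaled reads) and Gbp3 (59 and 57) nearly coincide, and on chromosome 5 those of Gbp9 (356 and 926) and Gbp4 (45 and 208) lie far apart.

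Of the 4 receptor chains, Ifngr2, the signalling chain of the interferon gamma receptor, was the 1 that changed, and it was higher in both knock-downs. The gene (ENSMUSG00000022965) lies at 91547072 to 91565623 on the plus strand of chromosome 16. It was at 898 and 601 scaled reads in EmptyVector, 1203 and 1309 in KDNTN1 and 1438 and 1297 in KDUNC5B. Every knock-down library was above both controls, which themselves lay apart. The mean rose 1.68-fold in KDNTN1 (log2 difference 0.77 ± 0.19 SE; limma, adjusted p = 0.0294) and 1.82-fold in KDUNC5B (0.89 ± 0.19; limma, adjusted p = 0.0195).

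The KDNTN1 call of Ifngr2 was lost without EmptyVector library 2 (log2 difference 0.48, limma adjusted p = 0.0673), and without KDNTN1 library 1 (0.151) or library 2 (0.208). The KDUNC5B call was lost without KDUNC5B library 1 (0.105) or library 2 (0.0864).

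The other receptor chains gave no call. Ifngr1, the ligand-binding chain of the same receptor, was at 643 and 823 in EmptyVector, 827 and 920 in KDNTN1 and 658 and 540 in KDUNC5B, and KDNTN1 lay above KDUNC5B by 0.55 ± 0.17 (SE) on the log2 scale (limma, adjusted p = 0.104). Ifnar1 ranged from 1369 to 1908 over all libraries, and Ifnar2 from 751 to 1319. Against EmptyVector the adjusted p of these 3 genes lay between 0.248 and 0.799 (limma). Il10rb, a shared chain of the interferon lambda and interleukin 10 receptors, lies between Ifnar2 and Ifnar1 on chromosome 16. It was at 423 and 494 scaled reads in EmptyVector, 616 and 697 in KDNTN1 and 887 and 681 in KDUNC5B, and was called in KDUNC5B (log2 difference 0.76; limma, adjusted p = 0.0278), a call lost without EmptyVector library 1 (0.0617) or KDUNC5B library 1 (0.148). Ifnlr1, the specific chain of the interferon lambda receptor, was at 432 and 592, 240 and 278, and 438 and 252 in the same order, and was not called (log2 difference -0.96 in KDNTN1 and -0.60 in KDUNC5B; limma, adjusted p = 0.0515 and 0.209).

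Samd9l, which encodes an antiviral protein that restricts poxviruses, rose in both knock-downs. The gene (ENSMUSG00000047735) lies at 3372257 to 3399572 on the minus strand of chromosome 6. It was at 212 and 215 scaled reads in EmptyVector, 428 and 428 in KDNTN1 and 357 and 322 in KDUNC5B. The 3 groups did not overlap. The mean rose 2.00-fold in KDNTN1 (log2 difference 0.99 ± 0.16 SE; limma, adjusted p = 0.00592) and 1.59-fold in KDUNC5B (0.66 ± 0.16; limma, adjusted p = 0.0368). Without KDNTN1 library 1 or 2 the KDNTN1 call was lost (adjusted p = 0.0742 and 0.0726) at the same log2 difference, and the KDUNC5B call was lost without any 1 of the 4 libraries compared (0.0613 to 0.164).

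Among the RNA sensors, Ddx58 (ENSMUSG00000040296, minus strand of chromosome 4, 40203773 to 40239828) was at 1073 and 999 scaled reads in EmptyVector, 782 and 694 in KDNTN1 and 883 and 781 in KDUNC5B. All knock-down libraries were below both controls. It fell by 0.49 ± 0.14 (SE) on the log2 scale in KDNTN1, where it only just passed the threshold (limma, adjusted p = 0.0497). The call held in 2 of 12 alternatives and was lost without any single library compared (adjusted p 0.0670 to 0.311), under both other scalings and with a pseudocount of 1. Ifih1 ranged from 340 to 541 over all libraries with overlapping groups, and Dhx58 was at 33 and 34 in EmptyVector, 43 and 58 in KDNTN1 and 62 and 53 in KDUNC5B. Against EmptyVector the adjusted p of these 2 genes lay between 0.187 and 0.907 (limma).

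The transcription factors among the members gave no call. Irf1 stayed between 2447 and 2951 scaled reads in all 6 libraries, Irf3 between 349 and 480 and Irf7, the amplifier of type I interferon transcription, between 53 and 67. The Irf1 log2 differences from EmptyVector were -0.03 ± 0.13 (SE) in KDNTN1 and 0.01 ± 0.13 in KDUNC5B (limma, adjusted p = 0.912 and 0.963). Stat2 was at 171 and 208 in EmptyVector, 214 and 358 in KDNTN1 and 265 and 195 in KDUNC5B, and Irf9, the DNA-binding partner of the STATs, at 126 and 213, 133 and 131, and 227 and 160. In both, the groups overlapped or lay close. Over Stat2, Irf3, Irf7 and Irf9 the adjusted p against EmptyVector lay between 0.238 and 0.923 (limma).

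The remaining tested members encode the ISG15 conjugation system, exonucleases, synthetases and other induced proteins, and none was called in either knock-down against EmptyVector. Isg20, an RNA exonuclease, was at 383 and 542 scaled reads in EmptyVector, 342 and 324 in KDNTN1 and 348 and 331 in KDUNC5B. Its log2 differences of -0.45 ± 0.20 (SE) and -0.42 ± 0.20 were not called (limma, adjusted p = 0.169 and 0.216) but passed the threshold without EmptyVector library 1 (0.0378 and 0.0478). All 4 knock-down values of Isg20 were below both controls.

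Bst2 was at 173 and 318 in EmptyVector, 354 and 358 in KDNTN1 and 419 and 338 in KDUNC5B, with all knock-down values above the controls. Its log2 differences of 0.59 ± 0.27 (SE) and 0.67 ± 0.27 were not called (limma, adjusted p = 0.192 and 0.161), but were without EmptyVector library 2 (0.0173 and 0.0158). Oasl2, an oligoadenylate synthetase-like gene, was at 126 and 338 in EmptyVector, 102 and 122 in KDNTN1 and 212 and 123 in KDUNC5B (limma, adjusted p = 0.231 and 0.670), and was called in KDNTN1 without EmptyVector library 1 (0.0163). For these 3 genes the result depends on which control library is used.

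Trim25 ranged from 1794 to 2430 scaled reads, Parp9 from 491 to 801, Parp14 from 719 to 1056, and Ifi35 from 291 to 394. Herc6, the mouse ISG15 ligase, was at 55 and 87 in EmptyVector, 124 and 92 in KDNTN1 and 133 and 76 in KDUNC5B, and Usp18, which removes ISG15 and dampens the receptor, was at 16 and 25, 17 and 18, and 45 and 16. Xaf1, an inducer of cell death, was at 187 and 316, 197 and 214, and 314 and 211. None of these 7 genes was called in any comparison, and against EmptyVector their log2 differences lay between -0.28 and 0.59 (limma, adjusted p between 0.188 and 0.943).

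The knock-downs were also compared with each other. Only Gbp7 among the 27 tested members (3.70%) was called, beside 7.1% of all tested genes, and it was higher in KDNTN1, where 4.15% of all genes were higher and 2.95% lower. The log2 difference was 1.62 ± 0.26 (SE; limma, adjusted p = 0.0107), and the KDNTN1 mean of 105.5 ± 14.8 (SD, n = 2) was 3.40-fold above that of KDUNC5B. This call was lost without KDNTN1 library 1 (adjusted p = 0.0985) or library 2 (0.140) and without KDUNC5B library 2 (0.0720). Gbp3 was also higher in KDNTN1, with no overlap of the libraries, but its difference of 1.12 ± 0.39 was not called (limma, adjusted p = 0.134). Ifit2, Ifngr2 and Samd9l, called in both knock-downs, differed between them by 0.38 ± 0.66, -0.12 ± 0.19 and 0.33 ± 0.16 (limma, adjusted p = 0.787, 0.760 and 0.278). The median over the 27 members was -0.08 beside -0.05 over all genes, and 10 members (37.0%) did not overlap, beside 55.6% of all genes.

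Other genes of the pathway were read from lists of 28 signalling genes, of which 25 were tested, and 80 further induced genes, of which 53 were tested. In KDNTN1, 2 signalling genes rose and 3 fell, and 1 induced gene rose and 4 fell. In KDUNC5B, 4 signalling genes rose and 1 fell, and 2 induced genes rose and 2 fell. Together 10 of the 78 (12.8%) were called in KDNTN1 and 9 (11.5%) in KDUNC5B, near the shares of all genes given above.

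The Janus kinases at the receptors gave no call in any comparison. Jak1 was at 4384 and 4120 scaled reads in EmptyVector, 4223 and 3825 in KDNTN1 and 3358 and 3319 in KDUNC5B, and Tyk2 at 766 and 880, 611 and 813, and 996 and 667. Jak2 was at 1836 and 2968, 3274 and 3504, and 3056 and 2036 in the same order, and was called in KDNTN1 without EmptyVector library 2 (limma, adjusted p = 0.0275). All 3 were thus expressed in each group, with Jak1 lowest in KDUNC5B.

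Among the called pathway genes, Tlr3, the endosomal sensor of double-stranded RNA, fell in both knock-downs. It was at 5402 and 9114 scaled reads in EmptyVector, 2178 and 2321 in KDNTN1 and 2612 and 1647 in KDUNC5B, log2 differences of -1.64 (limma, adjusted p = 0.00546) and -1.76 (0.00491), and the KDNTN1 call was lost without either KDNTN1 library (0.0717 and 0.0607). Ikbke, a kinase that activates IRF3 and IRF7, rose in both, from 1509 and 1148 to 2661 and 3309 in KDNTN1 and 2845 and 2506 in KDUNC5B (1.17 and 1.02; limma, adjusted p = 0.00311 and 0.00691). Its KDNTN1 call was lost without KDNTN1 library 2 (0.0565) and its KDUNC5B call without KDUNC5B library 1 (0.0502). Slfn9, of the interferon-induced Schlafen family, was at 214 and 187 in EmptyVector, 228 and 171 in KDNTN1 and 17 and 12 in KDUNC5B. It fell by 3.41 in KDUNC5B on the log2 scale (limma, adjusted p = 0.000413) and differed between the knock-downs by 3.39 (0.000879).

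In KDNTN1 the other named genes were Irf8, a transcription factor of myeloid cells that interferon gamma also induces, Psmb8, an immunoproteasome subunit, Ticam1, the adaptor of Tlr3, and Sppl2a, an intramembrane protease. Irf8 rose from 10 and 18 scaled reads to 69 and 80 (log2 difference 2.09; limma, adjusted p = 0.00581), and Psmb8 from 24 and 27 to 74 and 76 (1.39, 0.0169). In KDUNC5B, Irf8 was at 41 and 37 (1.24, 0.0534) and Psmb8 at 32 and 35 (0.34, 0.522). The other immunoproteasome subunits went the other way in KDNTN1, Psmb10 from 487 and 418 to 247 and 284 (-0.76, 0.0200) and Psmb9, not called, from 57 and 73 to 26 and 43 (-0.85, 0.168). The Psmb10 call was lost without EmptyVector library 1 (0.0575) or either KDNTN1 library (0.174 and 0.0955). Ticam1 fell from 289 and 423 to 159 and 187 (-0.999, 0.0250), and Sppl2a from 3528 and 4225 to 1945 and 2037 (-0.95, 0.00231). In KDUNC5B, Ticam1 was also below both controls, at 209 and 176 (-0.85, 0.0523), and was called under both other scalings (0.0398 and 0.0412) and without EmptyVector library 1 (0.0178), and Sppl2a was at 3518 and 3097 (-0.23, 0.306). Without KDNTN1 library 1 the KDNTN1 calls of Irf8, Psmb8, Ticam1 and Sppl2a were lost (0.0568, 0.115, 0.184 and 0.0513), without KDNTN1 library 2 those of Irf8, Psmb8 and Ticam1 were (0.0702, 0.122 and 0.113), and without EmptyVector library 2 that of Ticam1 was (0.0970).

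In KDUNC5B the other named genes were Tapbp, which helps load peptides on MHC class I, Trim34a, a member of the tripartite motif family, and Casp1, the inflammasome protease. Tapbp fell from 5841 and 7408 scaled reads to 2855 and 2200 (log2 difference -1.39; limma, adjusted p = 0.00146), and it was also called lower in KDNTN1, at 3940 and 3700 (-0.78, 0.0138), a call lost without either KDNTN1 library (0.105 and 0.138). Trim34a rose from 2 and 7 to 58 and 35 (2.45, 0.0111), and Casp1 from 49 and 73 to 186 and 127 (1.29, 0.0318). The 2 EmptyVector values of Trim34a lie under or near the 3-read floors of those libraries, 5.90 and 6.86 scaled reads. In KDNTN1, Trim34a was at 24 and 18 (1.49, 0.0599) and Casp1 at 64 and 83 (0.26, 0.616). The Trim34a call was lost without KDUNC5B library 1 (0.0798), and the Casp1 call without EmptyVector library 1 (0.0827) or either KDUNC5B library (0.174 and 0.0758). Between the knock-downs, 3 of the 78 (3.85%) were called, Slfn9 and, lower in KDNTN1, Trim21 (86 and 83 against 182 and 192) and Sppl2a (1945 and 2037 against 3518 and 3097). Both of these calls (-1.10, limma adjusted p = 0.0449, and -0.73, 0.0151) were lost without any 1 of the 4 libraries compared, with adjusted p from 0.0529 to 0.254. With no filter on low values, the KDNTN1 calls of Tlr3, Psmb8, Ticam1 and Tapbp, the KDUNC5B calls of Tlr3, Ikbke, Trim34a, Casp1 and Il10rb and the direct calls of Trim21 and Sppl2a were lost (adjusted p from 0.0513 to 0.121). Without the variance trend, those of Ticam1, Tapbp (KDNTN1), Casp1, Il10rb, Trim21 and Sppl2a (direct) were (0.0532 to 0.0780).

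The members varied between the libraries of a group. In EmptyVector, 7 of the 27 tested members (25.9%) were at least 1.5-fold higher in library 2 and 0 were so in library 1, beside 12.4% and 7.52% of all tested genes. In KDUNC5B the order was opposite, with 6 members (22.2%) at least 1.5-fold higher in library 1 and 0 in library 2, beside 9.65% and 4.83% of all genes. Both held for Herc6, Ifit2, Oasl2 and Usp18, whose values are given above, 4 of 27 members (14.8%), and for 10 of the 53 further induced genes (18.9%), beside 4.53% of all genes. In KDNTN1, 3 members (11.1%) were higher in library 2 by that fold, beside 8.44% of all genes. The library numbers are names only, and the source of the difference was not tested.

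**Figure D5:**
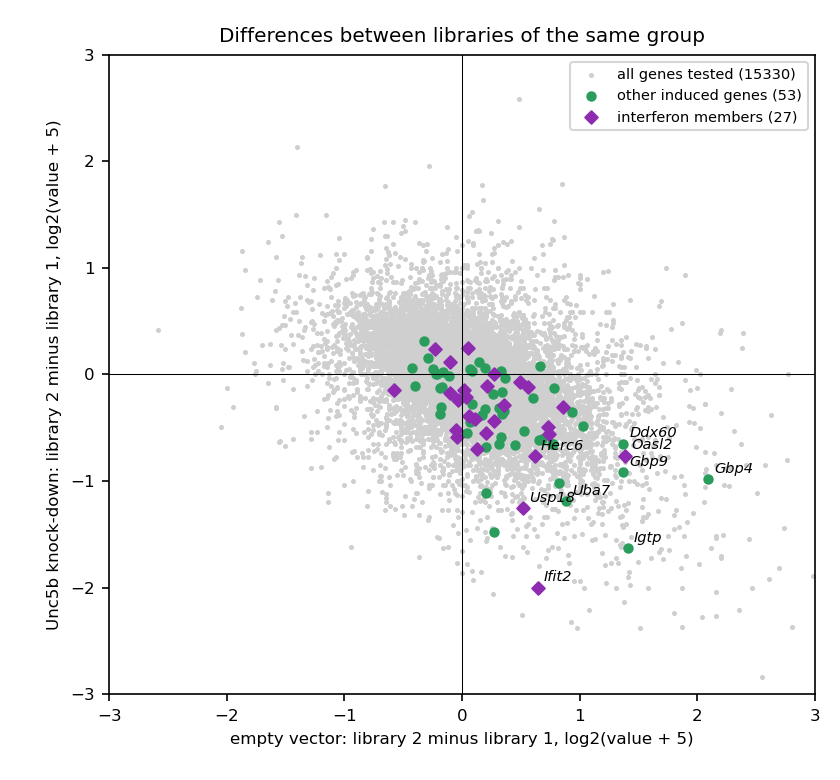
Library 2 minus library 1 on the log2(scaled reads + 5) scale, in EmptyVector (horizontal axis) and KDUNC5B (vertical axis), for all 15330 tested genes (grey), 53 other induced genes (green) and the 27 tested members (purple); 5 genes lie outside the axes. The members lie mostly to the right of 0 and under 0, with medians of 0.20 in EmptyVector and -0.31 in KDUNC5B, and named points are among those far from 0 in both.

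Markers of cell types that a sort could have carried were read beside these values. All 10 epithelial markers were above the floor, with sums of 57040 to 59980 scaled reads in EmptyVector, 76192 to 80420 in KDNTN1 and 59084 to 63959 in KDUNC5B. Of 22 immune markers, 10 were at 0 in all libraries, among them Cd3g, Cd4, Adgre1, Lyz2 and Siglech, and Ptprc was between 0 and 5. The whole immune list summed to 1538 to 2000 in EmptyVector, 1035 to 1202 in KDNTN1 and 1619 to 2282 in KDUNC5B. Most of that in EmptyVector and KDUNC5B was Csf1r. It was at 1213 and 1511 in EmptyVector, 347 and 443 in KDNTN1 and 1569 and 1003 in KDUNC5B. In KDNTN1 it fell by 1.77 on the log2 scale (limma, adjusted p = 0.00193). Without Bst2, a member, and Csf1r, the sum was 152 to 171, 334 to 401 and 278 to 294. That sum includes S100a8, which keratinocytes also express, at 2 and 7, 97 and 135, and 79 and 76. It also includes Cd14, at 134 and 137, 190 and 202, and 184 and 160, which was not called in any comparison. Flt3 was at 6 and 9, 38 and 52, and 6 and 21, and was called higher in KDNTN1 (log2 difference 2.00, limma adjusted p = 0.0308). Its mean of 22 over all libraries reached the filter through KDNTN1, the group where it was high. The EmptyVector and KDUNC5B means of Flt3 were 7.5 and 13.5. Of the 5 tested immune markers, 2 were called higher and 1 lower in KDNTN1 (60%), beside 15.1% of all tested genes. In KDUNC5B, 1 was called higher and 0 lower (20%), beside 12% of all tested genes. Fibroblast markers summed to 136 to 137, 211 to 311 and 139 to 237, and endothelial markers to 96 to 108, 190 to 238 and 98 to 102 in the same order. Of the fibroblast markers, Pdgfra was at 90 and 69, 193 and 113, and 169 and 109. Neither it nor the other tested fibroblast marker was called in any comparison. Under the mean of 20, Pdgfrb was at 8 and 7, 36 and 31, and 0 and 2, and Col1a2 at 10 and 25, 19 and 9, and 13 and 5. Of the endothelial markers, Cdh5 was at 0 and 0, 86 and 113, and 2 and 0, Pecam1 between 88 and 107, and Kdr, Emcn and Tek between 0 and 3. Cdh5 was called higher in KDNTN1 than in EmptyVector (log2 difference 4.37, limma adjusted p = 0.000725) and than in KDUNC5B (4.13, 0.00229). Its mean of 33.5 reached the filter through KDNTN1 alone. Tie1, the other marker of that list, was low but above the floor in some libraries, and was higher in KDNTN1 than in EmptyVector. The part of these sums in the member values was not tested.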

How the data were processed

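RNA from 6 libraries of sorted LKPR EPCAM+ cells was made into Ovation Solo libraries, per the labels' protocols. STAR, Picard and HTSeq, without versions, and GRCm38 (mm10) are named per the submitters' processing notes. No source used here gives the annotation, strand, duplicate handling or scaling step. The authors deposited whole numbers that sum to about 20 M per library, and they were treated as a score, not as counts. Depth was estimated as the largest step that held 99.5% of values up to 150. Genes with a mean of at least 20 were fitted on log2(value + 5) with limma 3.58.1 in R 4.3.3 over all 3 groups, with a variance trend (3 residual and 5.33 prior degrees of freedom), 2-sided tests and Benjamini-Hochberg adjustment over all tested genes. The fit was tested on simulated data. No exact permutation test was used, since 2 libraries against 2 allow no p below 0.333. The members and gene lists were chosen with earlier results of these data known. All 39 members are named, with, per comparison, at most 6 called genes of the pathway lists with the largest log2 differences, and the ligand and JAK genes. Il10rb, Ifnlr1, Psmb9, Psmb10, Csf1r, Cd14, Flt3, Tie1, Pdgfra, Pdgfrb, Col1a2 and the other Gbp genes were named after their values were seen. Some listed genes are not reported here. Alternatives were other pseudocounts, filters and scalings, no variance trend, a replicate block and leaving out each library.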

Additional observations from a re-analysis of the deposited data

Results flagged for a closer look

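Gbp7 stood out because its response differed between the knock-downs by a test of the difference itself. It was at 95 and 116 scaled reads in KDNTN1 and 34 and 28 in KDUNC5B, a log2 difference of 1.62 (limma, adjusted p = 0.0107), with all KDNTN1 libraries above all KDUNC5B libraries. Over the alternatives that tested it, the adjusted p ran from 0.00809 to 0.140, and the call held in 7 of 11. Groups of 2 libraries were too small to look for single libraries that stand apart.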

How the results depend on the processing

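The design has 2 libraries a group and 3 residual degrees of freedom, so calls near the threshold moved with the settings. No called member changed sign under any alternative run. Among members not called, 8 of 22 in KDNTN1, 10 of 22 in KDUNC5B and 10 of 26 in the direct comparison changed sign in at least 1 alternative. With no filter on low values, 1289 genes were called in KDNTN1, 791 in KDUNC5B and 302 between the knock-downs, against 2314, 1835 and 1088, and 1, 2 and 0 members were called, against 5, 5 and 1. Without the variance trend the counts of genes were 1462, 1115 and 454, and 1 member was called in KDNTN1. With a pseudocount of 1, 3 members were called in KDNTN1. With a mean of at least 100 required, 20 members were tested, and 2 were called in KDUNC5B and 0 between the knock-downs. Gbp7, Gbp3 and Ifit2, with means of 91.0, 31.8 and 38.7, were not tested in that setting, so their calls could not be kept. Leaving out 1 library at a time gave 507 to 2769 genes and 0 to 6 members in KDNTN1, 680 to 2428 genes and 1 to 5 members in KDUNC5B, and 34 to 330 genes and 0 to 1 members between the knock-downs; a lone library was assumed to vary like the other groups. The cause of these changes was not tested, beyond the fewer samples or other genes that each setting uses.

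With the replicate number as a replicate block, 1465, 1102 and 459 genes and 2 members in KDNTN1 were called. Same-numbered libraries correlated in their deviations at 0.16, -0.45 and -0.17 for the 3 pairings of groups, so the numbers were not taken to pair the libraries. TMM and median-of-ratios scaling moved the median of all genes by less than 0.1 on the log2 scale, and called 745 higher and 359 lower, or 751 and 356, genes between the knock-downs against 636 and 452. Depth limits the members near the 3-read floor, where the 5 at or under it in all libraries show no detectable order of the groups.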
